A study of Vitis vinifera with 219 samples.

Results

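The 3 genes described here are the 9-cis-epoxycarotenoid dioxygenases (NCEDs) VIT_19s0093g00550, VIT_10s0003g03750 and VIT_05s0051g00670 of the grapevine, Vitis vinifera, picked by gene ID out of 29971 genes in an RNA-seq table of ripening berries. They are called the chromosome 19, chromosome 10 and chromosome 5 genes below, after the chromosome number that each ID carries. Berries without their seeds, labelled as pericarp, came from unthinned vines of Pinot noir (clone FPS 23) and Cabernet Sauvignon (clone FPS 8) in the 2012, 2013 and 2014 seasons. Each cultivar is 1 clone grown at 1 place, and the vines stood on different rootstocks (Freedom for Pinot noir), so cultivar and rootstock cannot be told apart. There were 73 groups of 3 libraries, of which 33 groups were Pinot noir and 40 Cabernet Sauvignon, sampled between day -37 and day 80 relative to veraison, the stage at which berries soften and colour. Each library also carries a labelled sugar content in g/100 ml. The question here was whether the NCED transcripts peak at the start of sugar gain or at veraison.

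NCED enzymes cleave epoxycarotenoids in plastids to xanthoxin, the step generally regarded as limiting the synthesis of abscisic acid. Abscisic acid is a hormone of drought responses and seed dormancy, and in the grape, a non-climacteric fruit, its content is known to increase around veraison, when sugar and anthocyanin begin to accumulate. NCEDs belong to the same protein family as the carotenoid cleavage dioxygenases, which act on carotenoids at other positions. Levels are given in RPKM, a read count scaled by gene length and by library size, so different genes can be set side by side per length.

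Column sums of the RPKM table ran between 807469 and 1192349 with a median of 951780. The skin colour genes GST4, UFGT, MYBA2 and MYBA1 were at 11.6 RPKM or more in every library of day 21 to 22, against 1.22 RPKM or less in every library of day -18 to -13. By 7 Pinot noir and 4 Cabernet Sauvignon marker genes, 4 libraries went against their label, namely all 3 labelled Cabernet Sauvignon 2014 day -23 and the library labelled Pinot noir 2014 day -14 replicate 2. A further 15 genes were chosen as high in nearly all 2012 libraries and low in nearly all 2014 libraries. By them the libraries split into a first set of 131, holding all of 2012 and most of 2013, and a second set of 88, holding all 75 libraries of 2014 and 13 Cabernet Sauvignon libraries of 2013 (day -13 replicate 1 and all from day 43 on). The choice of genes itself parts 2012 from 2014, and only the place of the 2013 libraries was open. Up to day 22, all but 1 of the second-set libraries are of 2014, so season 2014 and the second set cannot be told apart there. Equal replicate numbers are not tied to 1 plant by the labels, and p-values measure only the spread between these samples.

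The chromosome 19 gene reached the highest level of the 3 in each cultivar-season, in a group sampled between day -9 and day 8. In Pinot noir 2012 its 3 libraries stood at 5.14, 11.7 and 13.2 RPKM on day -18, at 77.2, 97.3 and 108 RPKM on day -9 and at 76.8, 88.8 and 91.7 RPKM on day 0. In Pinot noir 2013 they were 10.1, 17.3 and 30.4 RPKM on day -14, 50.2, 61.3 and 90.4 RPKM on day -7, and 46.0, 51.3 and 66.5 RPKM on day 0. In both of these seasons the Pinot noir maximum came at the last sampling before day 0, with library values that overlapped those of day 0. In Pinot noir 2014 the libraries were at 29.9, 39.6 and 48.3 RPKM on day -14, at 17.7, 38.6 and 48.1 RPKM on day -6 and at 48.5, 51.9 and 63.8 RPKM on day 0. The day 0 values lay above all libraries of the 2 preceding time points. The 48.3 RPKM of day -14 belong to the library that went against its label. In the same season the libraries were at 18.0, 19.4 and 21.0 RPKM on day 14 and, without overlap, at 30.6, 31.1 and 41.0 RPKM on day 21, a step of 0.77 on the log2 scale that was not called (limma adjusted p = 0.31).

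In Cabernet Sauvignon the chromosome 19 gene reached its maximum at day 0 in 2012 and 2013 and at day 8 in 2014. In 2012 the youngest berries, of day -37, held 13.0, 25.0 and 45.5 RPKM, and those of day -28 held 8.83, 10.0 and 10.5 RPKM. The 2012 libraries were at 2.32, 4.86 and 22.7 RPKM on day -18, 18.1, 27.5 and 36.3 RPKM on day -9, and 78.4, 94.7 and 124 RPKM on day 0. The 2013 libraries were at 27.4, 49.1 and 56.4 RPKM on day -13, 34.0, 72.9 and 81.3 RPKM on day -6, and 87.1, 157 and 161 RPKM on day 0, the highest group mean of all 73 at 135 ± 41.5 RPKM (SD, n = 3). Here day 0 stood clear of the time points on both sides. In 2014 the libraries were at 23.5, 41.5 and 52.2 RPKM on day -14, 22.9, 36.4 and 54.3 RPKM on day -7, 32.1, 56.5 and 63.9 RPKM on day 0, and 52.2, 54.7 and 121 RPKM on day 8. The 2014 maximum rested on 1 library, whose sugar of 5.32 g/100 ml was the lowest of the 3 on that day, and the other libraries of day 8 lay within the range of day 0.

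The maximum of the chromosome 19 gene was followed by a decline to low values. By day 42 to 43 the group means were 1.05 to 5.82 RPKM, and the highest group mean of a cultivar-season was 38.4 to 72.0 times its lowest. The maximum fell at a mean sugar of 1.11 to 7.84 g/100 ml and between day -9 and day 8, and in 3 of the 6 cultivar-seasons its libraries did not overlap those of the next highest group. The lowest group was always one of day 32 or later.

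A like course at a lower level was found for the chromosome 10 gene. In Pinot noir 2012 its libraries were at 2.46, 2.92 and 3.33 RPKM on day -18, 18.2, 30.0 and 30.2 RPKM on day -9, and 13.0, 19.3 and 21.4 RPKM on day 0. In Pinot noir 2013 they were at 4.25, 4.30 and 6.11 RPKM on day -14, 10.8, 11.9 and 17.5 RPKM on day -7, and 10.9, 15.8 and 17.2 RPKM on day 0. Both seasons showed day -9 or -7 clear of the earlier sampling, with no overlap, and overlapping day 0. In Pinot noir 2014 it was at 5.32, 6.84 and 13.1 RPKM on day -14, at 7.75, 8.88 and 9.00 RPKM on day -6, at 7.94, 8.22 and 11.3 RPKM on day 0, and at 11.4, 11.7 and 12.5 RPKM on day 7. The 13.1 RPKM come from the library that went against its label, and the other 2 libraries of that group lay below those of day -6.

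In Cabernet Sauvignon 2012 the chromosome 10 gene was at 3.07, 4.04 and 5.70 RPKM on day -18, 13.3, 18.2 and 18.3 RPKM on day -9, and 29.3, 31.7 and 40.3 RPKM on day 0, its highest group of all. In Cabernet Sauvignon 2013 it was at 13.1, 13.3 and 15.7 RPKM on day -13, 22.0, 25.3 and 31.1 RPKM on day -6, and 19.3, 26.0 and 26.0 RPKM on day 0. The 2012 values climbed at both samplings without overlap, whereas in 2013 day -6 and day 0 overlapped. In Cabernet Sauvignon 2014 it was at 13.8, 14.6 and 16.5 RPKM on day -14, 9.73, 10.3 and 16.1 RPKM on day -7, 15.4, 19.3 and 23.9 RPKM on day 0, and 14.7, 16.7 and 41.9 RPKM on day 8. Its maximum fell between day -9 and day 8 and at 2.00 to 9.23 g/100 ml of sugar in the 6 cultivar-seasons, at 11.9 to 33.8 RPKM, 4.72 to 15.1 times the lowest group. In 2 of the 6 the libraries of the maximum did not overlap those of the next group.

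In Cabernet Sauvignon 2012 the chromosome 10 gene was at 9.07, 16.1 and 17.8 RPKM on day -37 and at 10.3, 14.8 and 16.1 RPKM on day -28, and all of these lay above the day -18 values. In Pinot noir 2012 day -36, 1 library held 26.6 RPKM of the chromosome 19 gene and 6.52 RPKM of the chromosome 10 gene, while the others held 3.05 and 3.10 RPKM of the first and 1.06 and 1.11 RPKM of the second. Over all libraries, deviations from the group mean of log2(RPKM + 1) of these 2 genes correlated at r = 0.609, given as a description since both values of a point come from the same library.

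**Figure D1:**
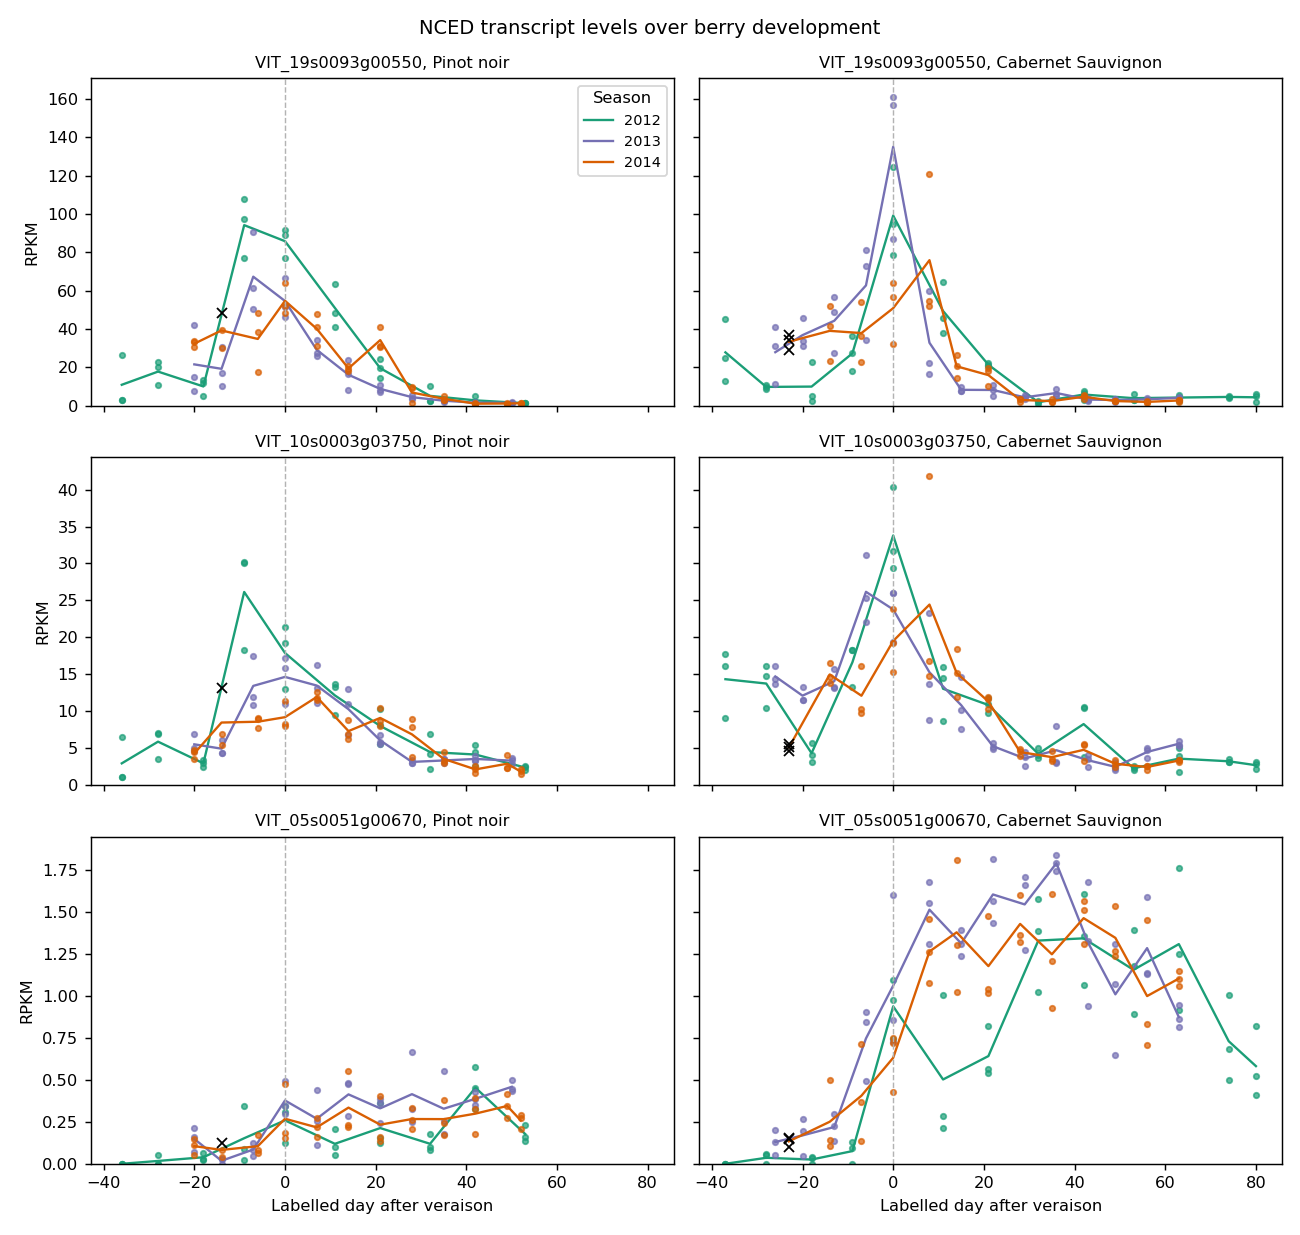
RPKM of the 3 NCED genes against the labelled day after veraison (dashed line at day 0), Pinot noir on the left and Cabernet Sauvignon on the right, with each library as a point, group means joined by season, and crosses for the 4 libraries that went against their label. The chromosome 19 and 10 genes are highest between day -9 and day 8, and the chromosome 5 gene stays at or under 1.84 RPKM in Cabernet Sauvignon, where its highest group means come on day 36 to 42, and at or under 0.669 RPKM in Pinot noir.

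Steps between developmental windows were tested with limma over all 21425 genes that passed a filter on low values, as mean differences of log2(RPKM + 1) over the 6 cultivar-seasons. A gene was called at a Benjamini-Hochberg adjusted p under 0.05 together with an absolute log2 difference of at least 1. Shares of all genes are given for calls only. Counts of NCED genes at an unadjusted p under 0.05 carry no size threshold and have no matching share of all genes, so they cannot be set against those shares. The chromosome 19 and 10 genes passed the filter in both cultivars. The chromosome 5 gene passed it through Cabernet Sauvignon libraries of day 0 or later alone, so its own tests lend no support to a rise or to a difference between the cultivars.

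At day -9 to -6 the chromosome 19 gene spanned 17.7 to 108 RPKM with a median of 49.1 (18 libraries), against 2.32 to 56.4 RPKM with a median of 25.4 at day -18 to -13 (18 libraries). The ranges overlapped, and the mean difference was 1.17 on the log2 scale (SE 0.18, limma adjusted p = 4.2e-09). The chromosome 10 gene spanned 7.75 to 31.1 RPKM with a median of 16.8, against 2.46 to 16.5 RPKM with a median of 5.91, a log2 difference of 1.07 (SE 0.12, limma adjusted p = 2.6e-15). Both rose, making 2 of the 3 NCED genes called in a comparison that called 2.89% of all genes, 1.35% as higher. Without replicate 1 of every group the chromosome 10 difference was 0.96 and not called. The call of this mean over cultivar-seasons depended on 2012. Without that season the log2 differences were 0.50 and 0.48 for the chromosome 19 and 10 genes, neither called. Within Pinot noir 2013 alone both genes were called. With cultivar-season means in place of libraries the limma adjusted p was 0.17 and 0.16.

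Within single cultivar-seasons the same step was called for the chromosome 19 gene in 3 of 6, namely Pinot noir 2012 (log2 difference 3.19), Pinot noir 2013 (1.84) and Cabernet Sauvignon 2012 (1.82), and for the chromosome 10 gene in the same 3 (2.77, 1.28 and 1.76). Cabernet Sauvignon 2013 gave 0.46 and 0.84, Pinot noir 2014 gave -0.25 and 0.10, and Cabernet Sauvignon 2014 gave -0.05 and -0.32. The share of all genes called in this step was 13.4% in Pinot noir 2012, 3.07% in Pinot noir 2013 and 2.64% in Pinot noir 2014. It was 5.06%, 8.94% and 1.53% in Cabernet Sauvignon 2012, 2013 and 2014. Sugar at day -9 to -6 was 1.55 to 3.58 g/100 ml in 2012 and 2013, but 1.34 g/100 ml in Pinot noir 2014 and 0.56 g/100 ml in Cabernet Sauvignon 2014.

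At veraison both genes also stood higher than in the green stage. At day 0 the chromosome 19 gene averaged 80.0 ± 36.2 RPKM and at day -18 to -13 27.0 ± 17.6 RPKM (SD, 18 libraries each), a log2 difference of 1.80 (SE 0.18, limma adjusted p = 3.1e-18). For the chromosome 10 gene the levels were 19.8 ± 8.63 RPKM at day 0 and 8.25 ± 5.15 RPKM at day -18 to -13, a difference of 1.27 (SE 0.12, limma adjusted p = 2.3e-20). Here too 2 of the 3 genes were called, against 12.5% of all genes, 3.54% as higher, and both stayed called with cultivar-season means as replicates (limma adjusted p = 0.015 and 0.022) and without the 4 libraries that went against their label (log2 differences 1.82 and 1.33). In such bulk samples, fewer cells of a type and less RNA per cell cannot be told apart. Without 2012 the chromosome 10 gene gave 0.66 and was no longer called. The step from day -9 to -6 to day 0 alone gave 0.63 (SE 0.18, limma adjusted p = 0.0010) for the chromosome 19 gene and 0.20 (SE 0.12, limma adjusted p = 0.12) for the chromosome 10 gene. Here 0 of the 3 genes were called, against 4.18% of all genes. At an unadjusted p under 0.05 the count was 2 of 3, the chromosome 19 and 5 genes. The chromosome 5 gene lends no support to a rise, given how it passed the filter.

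After veraison the levels of both genes came down. Its libraries averaged 46.4 ± 23.3 RPKM at day 7 to 11, 18.0 ± 9.64 RPKM at day 21 to 22 and 3.18 ± 2.02 RPKM at day 42 to 43 (SD, 18 libraries each). The step from day 0 to day 7 to 11 gave -0.79 (SE 0.18, limma adjusted p = 6.7e-05), short of the size threshold, and -1.05 and called without replicate 3 of every group. With all libraries 0 of the 3 genes were called (1.05% of all genes), with 2 of 3 at an unadjusted p under 0.05. The following steps gave -1.36 (SE 0.18, limma adjusted p = 2.0e-11) at day 21 to 22 and -2.15 (SE 0.18, limma adjusted p = 6.3e-23) at day 42 to 43, and each called 1 of the 3 genes, against 1.99% and 4.27% of all genes. The fall to day 42 to 43 was called within every one of the 6 cultivar-seasons, between -1.10 in Cabernet Sauvignon 2013, where it crosses the 2 library sets, and -4.09 in Pinot noir 2014. All genes were called at 5.22%, 7.37% and 10.1% in the 3 Pinot noir seasons and at 4.28%, 6.63% and 4.81% in the 3 Cabernet Sauvignon seasons.

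Its counterpart on chromosome 10 averaged 15.0 ± 7.52 RPKM at day 7 to 11, 8.39 ± 2.54 RPKM at day 21 to 22 and 4.32 ± 2.49 RPKM at day 42 to 43. Its single steps of -0.35, -0.73 and -0.88 (SE 0.12 each) stayed under the size threshold. Taken from day 0 to day 21 to 22, the difference was -1.08 (SE 0.12, limma adjusted p = 6.1e-16) for the chromosome 10 gene and -2.15 (SE 0.18, limma adjusted p = 3.2e-23) for the chromosome 19 gene. Thus 2 of the 3 fell, against 7.43% of all genes called and 5.40% as lower. The chromosome 10 call lay at the threshold, and scaling by quantiles or by TMM moved it to -0.87 and -0.89. It was -0.99 without replicate 2 of every group. From day -9 to -6 to day 21 to 22 the chromosome 19 gene gave -1.52 (limma adjusted p = 2.0e-14) and the chromosome 10 gene -0.88 (limma adjusted p = 5.8e-12), 1 of 3 called, against 17.9% of all genes. Without 2013 the chromosome 19 difference was -0.90 and not called.

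Between green berries of day -18 to -13 and the first sampling of each season, and between the last sampling and day 42 to 43, none of the 3 genes was called (limma, 1.49% and 1.94% of all genes called, with 0 and 2 of 3 at an unadjusted p under 0.05). The 2 were the chromosome 10 and 5 genes. At the last sampling the chromosome 19 gene averaged 2.55 ± 1.53 RPKM and the chromosome 10 gene 3.15 ± 1.27 RPKM. At day 21 to 22 compared with day -18 to -13 again 0 of 3 were called, in a comparison that called 24.6% of all genes. At an unadjusted p under 0.05 there were 2 of 3, the chromosome 19 gene as lower and the chromosome 5 gene as higher. The latter lends no support to a rise, given how it passed the filter.

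Each time point was also compared with the one before it within its cultivar-season, 67 steps in all, with p-values adjusted over genes within a step. The chromosome 19 gene was called as higher in 6 steps and lower in 10, the chromosome 10 gene as higher in 5 and lower in 5, and the chromosome 5 gene in none, while the median step called 1.95% of all genes (range 0.00933% to 13.4%). All steps and genes together gave 2.99% called, 1.19% as higher and 1.80% as lower. All higher calls ended at day 0 or earlier. The steepest single fall was that of the chromosome 19 gene in Cabernet Sauvignon 2012, to 0.93, 2.08 and 2.35 RPKM on day 32, against 20.8, 21.2 and 22.1 RPKM on day 21 (log2 difference -3.04). One higher call of the chromosome 10 gene, Cabernet Sauvignon 2014 day -14 over day -23, involves the 3 day -23 libraries that carried Pinot noir markers.

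**Figure D2:**
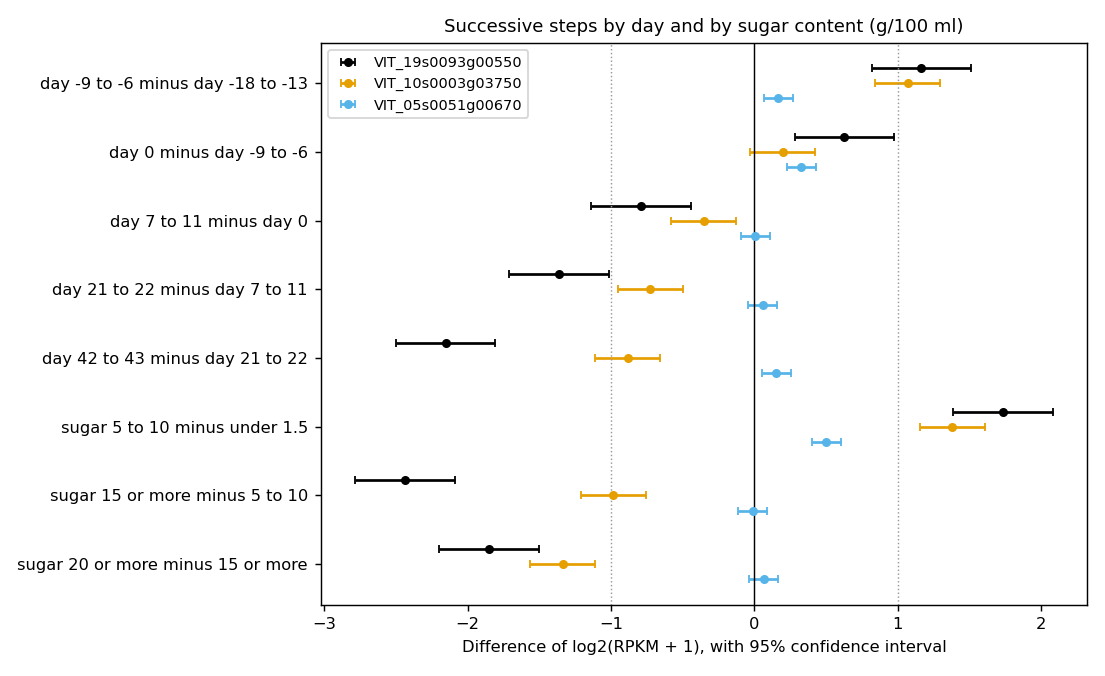
Mean difference of log2(RPKM + 1) with its 95% confidence interval (limma) for successive windows by day, then by sugar, with dotted lines at the size threshold of 1. The chromosome 19 and 10 genes lie above 1 at day -9 to -6 minus day -18 to -13 and at 5 to 10 g/100 ml minus the green stage, the chromosome 19 gene lies below -1 from day 21 to 22 on and in both later sugar steps, and the chromosome 10 gene does so at 20 minus 15 g/100 ml.

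Aligning the berries by labelled sugar instead of by day gave the green stage (last sampling under 1.5 g/100 ml), the first rise (1.5 to 5 g/100 ml, not sampled in Pinot noir 2014), 5 to 10 g/100 ml, the first sampling at 15 g/100 ml or more and the first at 20 g/100 ml or more. In 2012 and 2013 the green stage and the 5 to 10 g/100 ml stage are the same libraries as day -18 to -13 and day 0, so only 2014 is aligned anew. In that season the green stage is day 0 in Pinot noir, at 1.11 g/100 ml, and day -7 in Cabernet Sauvignon, and 5 to 10 g/100 ml is day 7 and day 8.

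At the first rise of sugar the chromosome 19 gene spanned 18.1 to 108 RPKM with a median of 61.3, against 2.32 to 56.4 RPKM with a median of 22.7 in the green stage (15 libraries each). The log2 difference was 1.55 (SE 0.19, limma adjusted p = 2.1e-12). The chromosome 10 gene spanned 10.8 to 31.1 RPKM with a median of 18.3, against 2.46 to 16.1 RPKM with a median of 5.70, a difference of 1.46 (SE 0.13, limma adjusted p = 3.2e-21). These 2 of 3 genes rose where 4.99% of all genes were called, 1.93% as higher. Without 2012 the differences were 0.91 and 0.93, under the size threshold, and with cultivar-season means as replicates the limma adjusted p was 0.072 and 0.070.

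At 5 to 10 g/100 ml the chromosome 19 gene averaged 81.8 ± 38.4 RPKM and in the green stage 29.4 ± 20.2 RPKM (SD, 18 libraries each), a log2 difference of 1.73 (SE 0.18, limma adjusted p = 2.3e-17). Levels of the chromosome 10 gene averaged 21.1 ± 9.59 RPKM at 5 to 10 g/100 ml and 7.89 ± 4.56 RPKM in the green stage, a difference of 1.38 (SE 0.12, limma adjusted p = 6.1e-23). Both were called, 2 of 3 against 13.1% of all genes and 3.35% as higher. Without 2012 the differences were 0.92 and 0.83 and neither was called.

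With further sugar gain the chromosome 19 gene fell to 14.7 ± 6.83 RPKM at 15 g/100 ml, a difference of -2.44 from 5 to 10 g/100 ml (SE 0.18, limma adjusted p = 6.0e-27). It fell again to 3.25 ± 2.19 RPKM at 20 g/100 ml, a difference of -1.85 (SE 0.18, limma adjusted p = 2.3e-18). The chromosome 10 gene was at 9.65 ± 2.69 RPKM at 15 g/100 ml, a difference of -0.98 (SE 0.12, limma adjusted p = 1.1e-13) just under the size threshold (-1.06 and called without replicate 1 of every group). It fell to 3.23 ± 1.27 RPKM at 20 g/100 ml, a difference of -1.34 (SE 0.12, limma adjusted p = 4.1e-21). The first of these steps called 1 of 3 NCED genes and 4.49% of all genes, the second 2 of 3 and 3.00%. Between 15 g/100 ml and the green stage 0 of 3 were called, against 21.5% of all genes. All 3 had an unadjusted p under 0.05, for which the share of all genes was not computed.

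Over single libraries of all seasons, the chromosome 19 gene had its highest median at 1.5 to 5 g/100 ml in Pinot noir (83.8 RPKM, 6 libraries, 50.2 to 108) and at 5 to 10 g/100 ml in Cabernet Sauvignon (94.7 RPKM, 9 libraries, 52.2 to 161). At 20 to 25 g/100 ml its medians were 1.58 RPKM in Pinot noir (15 libraries, 0.918 to 3.08) and 3.08 RPKM in Cabernet Sauvignon (32 libraries, 0.934 to 8.76). The chromosome 10 gene likewise had its highest median at 1.5 to 5 g/100 ml in Pinot noir (17.9 RPKM, 10.8 to 30.2) and at 5 to 10 g/100 ml in Cabernet Sauvignon (26.0 RPKM, 14.7 to 41.9). The Pinot noir libraries at 1.5 to 5 g/100 ml are of 2012 and 2013 alone, whereas those at 5 to 10 g/100 ml include 3 of 2014, at 31.4 to 48.0 RPKM of the chromosome 19 gene. Over 2012 and 2013 alone the Pinot noir medians at 5 to 10 g/100 ml were 71.6 RPKM for the chromosome 19 gene and 16.5 RPKM for the chromosome 10 gene. The library ranges of both genes overlapped those at 1.5 to 5 g/100 ml. In Cabernet Sauvignon 2014 the medians at 1.5 to 5 and at 5 to 10 g/100 ml were 56.5 and 54.7 RPKM for the chromosome 19 gene. They were 19.3 and 16.7 RPKM for the chromosome 10 gene (3 libraries each). Over Cabernet Sauvignon 2012 and 2013 (5 and 6 libraries) they were 36.3 and 110 RPKM for the first gene and 22.0 and 27.7 RPKM for the second. In neither cultivar did the libraries at 20 to 25 g/100 ml overlap those at 1.5 to 10 g/100 ml in either gene.

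**Figure D3:**
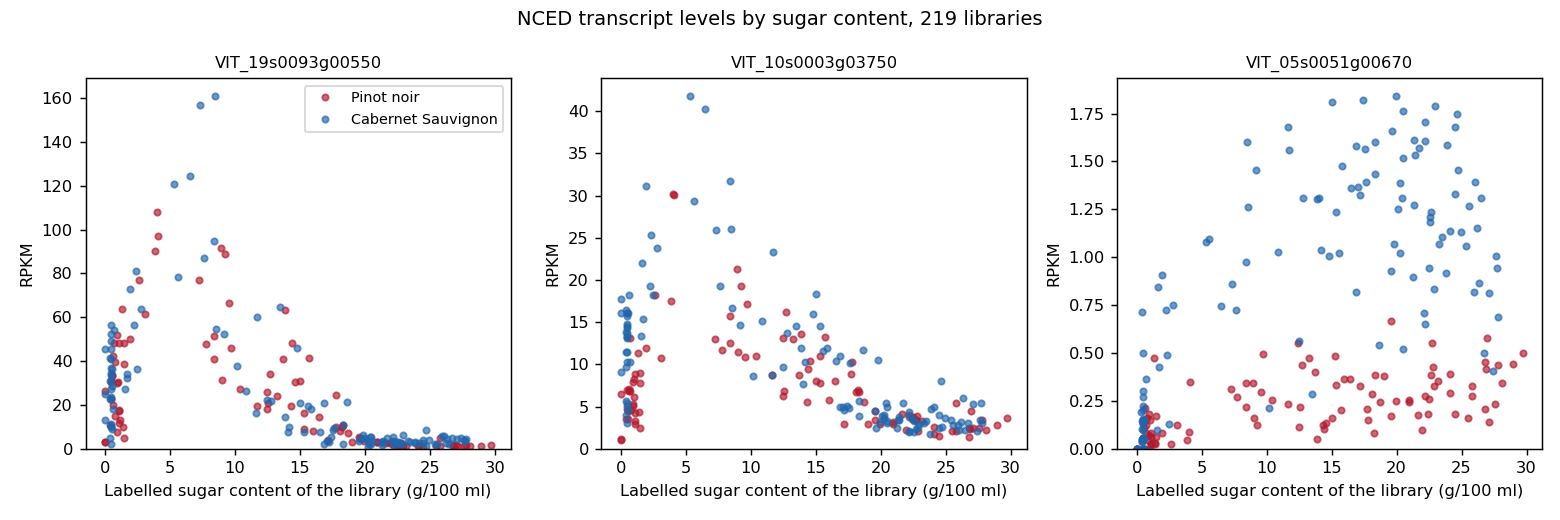
RPKM of the 3 NCED genes against the labelled sugar content of each library, Pinot noir in red and Cabernet Sauvignon in blue. The chromosome 19 and 10 genes are highest between 1.5 and 10 g/100 ml and low from 20 g/100 ml on. The chromosome 5 gene in Cabernet Sauvignon has higher medians from 5 g/100 ml on than below it, with single libraries down to 0.215 RPKM at 10 to 15 g/100 ml.

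The rise to veraison differed between 2014 and the earlier seasons. By day it was 0.44 in 2014 against a mean of 2.48 in 2012 and 2013 for the chromosome 19 gene, an interaction of -2.04 (SE 0.37, limma adjusted p = 1.5e-06), and 0.26 against 1.78 for the chromosome 10 gene, an interaction of -1.51 (SE 0.24, limma adjusted p = 6.0e-08). The step by sugar was 0.25 against 2.48 for the chromosome 19 gene (interaction -2.22, SE 0.37, limma adjusted p = 5.1e-07). For the chromosome 10 gene it was 0.60 against 1.78 (interaction -1.18, SE 0.24, limma adjusted p = 5.2e-05). In 2014 the step by sugar ended after labelled veraison, on day 7 in Pinot noir and day 8 in Cabernet Sauvignon. In Pinot noir it started on day 0, the chromosome 19 maximum of that season (54.7 RPKM), so its value is a step down from that maximum. The 2014 values by sugar were -0.45 in Pinot noir and 0.96 in Cabernet Sauvignon for the chromosome 19 gene (SE 0.43 each). They were 0.36 and 0.84 for the chromosome 10 gene (SE 0.28 each). The interaction was called for 2 of the 3 genes by day and by sugar, against 7.70% and 4.27% of all genes, 2.50% and 2.54% as lower. By sugar the chromosome 10 interaction was no longer called without replicate 1 of every group, nor without replicate 2, where it was -0.92.

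In 2014 neither gene was called in the rise by day or in the step by sugar, in either cultivar. Of all genes, 10.7% and 9.53% were called by day and 2.26% and 18.8% by sugar in Pinot noir and Cabernet Sauvignon. The green berries of 2014 already held 29.9 to 48.3 RPKM of the chromosome 19 gene in Pinot noir and 23.5 to 52.2 RPKM in Cabernet Sauvignon on day -14, against 5.14 to 13.2 and 2.32 to 22.7 RPKM on day -18 in 2012 and 10.1 to 30.4 and 27.4 to 56.4 RPKM on day -14 and -13 in 2013. Within 2012 the rise by day was 3.06 in Pinot noir and 3.67 in Cabernet Sauvignon, and within 2013 it was 1.57 and 1.60. The green sampling behind these values was taken on day -18 in 2012, on day -14 or -13 in 2013 and on day -14 in 2014. Without the 4 libraries that went against their label the interaction by day was -1.96 for the chromosome 19 gene and -1.35 for the chromosome 10 gene. Since all 2014 libraries and only 1 of the 2012 and 2013 libraries compared are in the second set, season and library set cannot be told apart in this difference. The day 0 berries also differed in mean labelled sugar, in the unit given above. It was 1.11 in Pinot noir 2014 and 2.26 in Cabernet Sauvignon 2014, against 6.83 to 9.23 in 2012 and 2013. The difference by day therefore does not compare berries of equal sugar.

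**Figure D4:**
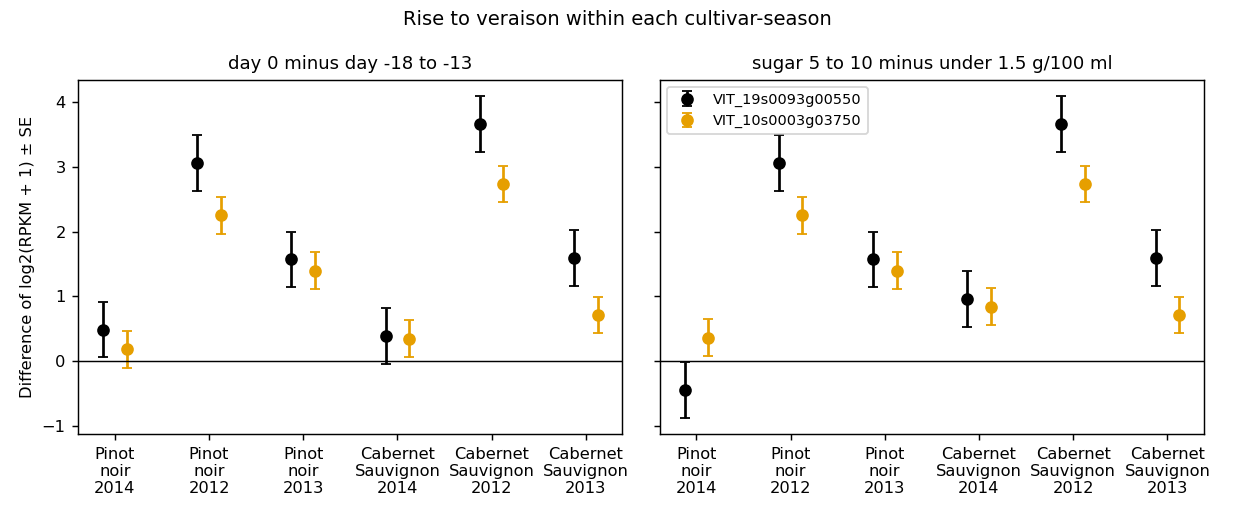
Difference of log2(RPKM + 1) with its SE (limma) within each cultivar-season, day 0 minus day -18 to -13 on the left and 5 to 10 g/100 ml minus the green stage on the right, each group with 3 libraries. The 2014 values of the chromosome 19 gene are 0.49 in Pinot noir and 0.39 in Cabernet Sauvignon by day and -0.45 and 0.96 by sugar, against 1.57 to 3.67 in 2012 and 2013, whose values are the same in both panels.

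Between the cultivars, Pinot noir had lower levels of the chromosome 10 gene than Cabernet Sauvignon at day -18 to -13 and at day 0, by less than the size threshold. At day 0 it averaged 13.9 ± 4.78 RPKM in Pinot noir and 25.7 ± 7.55 RPKM in Cabernet Sauvignon (SD, 9 libraries each), with 7.94 to 21.4 against 15.4 to 40.3 RPKM. The log2 difference was -0.86 (SE 0.16), with a limma adjusted p of 2.2e-06. At day -18 to -13 it was -0.87 (SE 0.16, limma adjusted p = 2.0e-06), -0.98 without the 4 libraries against their label, and -1.10 and called without 2012, as it was at -1.07 without replicate 2 of every group. Day -9 to -6 was not tested between cultivars, and on day -9 of 2012 Pinot noir stood higher, with 18.2 to 30.2 RPKM against 13.3 to 18.3 RPKM in Cabernet Sauvignon. Aligned by sugar the difference was -0.71 (SE 0.16, limma adjusted p = 9.0e-05) in the green stage and -0.80 (SE 0.16, limma adjusted p = 1.1e-05) at 5 to 10 g/100 ml. At day 21 to 22 it was -0.18 (SE 0.16, limma adjusted p = 0.34). The chromosome 19 gene at 5 to 10 g/100 ml averaged 60.2 ± 21.7 RPKM in Pinot noir and 103 ± 40.1 RPKM in Cabernet Sauvignon, a difference of -0.75 (SE 0.25, limma adjusted p = 0.0075), and -1.03 and called without 2012. By day its differences were -0.25 at day -18 to -13, -0.43 at day 0 and 0.35 at day 21 to 22. By sugar they were -0.07 in the green stage and -0.23 at 15 g/100 ml. For these the limma adjusted p lay between 0.14 and 0.84.

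In the 6 cultivar comparisons 0 of the 3 NCED genes were called by limma, against 5.31%, 6.88% and 9.31% of all genes at day -18 to -13, day 0 and day 21 to 22, and 7.65%, 6.65% and 9.12% in the green stage, at 5 to 10 and at 15 g/100 ml. At an unadjusted p under 0.05 the counts were 2, 2 and 1 of 3 by day and 1, 3 and 2 of 3 by sugar. The chromosome 5 gene is in each of these counts except that of the green stage by sugar, and is alone at day 21 to 22. It entered the tests through Cabernet Sauvignon libraries alone, so its part in the counts lends no support to a cultivar difference. The difference of the rise between Pinot noir and Cabernet Sauvignon was called for 0 of 3 genes by day and by sugar, against 2.90% and 4.37% of all genes. In each, 1 of 3 had an unadjusted p under 0.05, again the chromosome 5 gene. For the chromosome 19 gene by sugar it was -0.68 with a 95% interval of -1.38 to 0.02 (limma adjusted p = 0.13).

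The chromosome 5 gene was at the low end of detection and had its highest levels later in ripening. It was listed at 0 in 12 libraries, its lowest library value above 0 was 0.0249 RPKM, and its highest was 1.84 RPKM. It reached 1 RPKM in 0 of 99 Pinot noir libraries and in 60 of 120 Cabernet Sauvignon libraries, none of them before day 0. From day 0 on its median was 0.276 RPKM in Pinot noir (69 libraries, 0.0516 to 0.669) and 1.21 RPKM in Cabernet Sauvignon (87 libraries, 0.215 to 1.84).

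In Cabernet Sauvignon 2013 the chromosome 5 gene had 0.135, 0.223 and 0.300 RPKM on day -13, 0.727, 0.860 and 1.60 RPKM on day 0, and 1.75, 1.79 and 1.84 RPKM on day 36, its highest group. In Cabernet Sauvignon 2012 it had 0, 0.0351 and 0.0409 RPKM on day -18, 0.746, 0.975 and 1.10 RPKM on day 0, 0.543, 0.564 and 0.820 RPKM on day 21 and 1.07, 1.36 and 1.61 RPKM on day 42. In both seasons the day 0 libraries lay above all those under 1.5 g/100 ml, and the highest values came weeks after veraison. In 2013 the day 0 libraries overlapped those of day -6, at 0.492, 0.845 and 0.906 RPKM. In Pinot noir 2013 it had 0, 0.0267 and 0.0271 RPKM on day -14, 0.294, 0.344 and 0.495 RPKM on day 0, and 0.435, 0.443 and 0.499 RPKM on day 50. Its highest group fell between day 36 and day 50 in each of the 6 cultivar-seasons, at 19.5 to 28.8 g/100 ml, and overlapped the next group in all of them.

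Over both cultivars the chromosome 5 gene averaged 0.590 ± 0.383 RPKM at day 0 and 0.106 ± 0.127 RPKM at day -18 to -13 (SD, 18 libraries each), a difference of 0.50 (SE 0.05). By sugar, 5 to 10 g/100 ml minus the green stage gave 0.50 (SE 0.05), and day 21 to 22 minus day -18 to -13 gave 0.56 (SE 0.05). The log2(RPKM + 1) scale compresses such low values: with a pseudocount of 0.1 these differences were 1.72, 1.61 and 1.80. At day 21 to 22 it averaged 0.259 ± 0.118 RPKM in Pinot noir and 1.14 ± 0.455 RPKM in Cabernet Sauvignon (SD, 9 libraries each), with 0.124 to 0.402 against 0.543 to 1.82 RPKM, and the ranges did not overlap. That difference was -0.74 (SE 0.07), and it was -0.52 at day 0, -0.69 at 5 to 10 g/100 ml and -0.64 at 15 g/100 ml (SE 0.07 each). With a pseudocount of 0.1 these 4 differences were -1.77, -1.29, -1.64 and -1.53. They are given as a description, since the gene was tested only because of its Cabernet Sauvignon levels.

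Over the 73 group means of log2(RPKM + 1), the chromosome 19 and 10 genes correlated at r = 0.877, and at 0.887 to 0.940 within single cultivar-seasons. The chromosome 5 gene correlated at -0.298 with the first and -0.105 with the second. These values describe group means that share their libraries and the course of ripening. After day 22 the median ratio of chromosome 19 to chromosome 10 RPKM was 0.698 over 12 Pinot noir groups (0.404 to 1.44) and 0.909 over 18 Cabernet Sauvignon groups (0.427 to 1.75), with both medians below 1. Before day 0 it was 3.93 over 10 Pinot noir groups (3.05 to 7.61) and 2.40 over 11 Cabernet Sauvignon groups (0.714 to 6.60). The 6.60 is that of Cabernet Sauvignon 2014 day -23, whose 3 libraries carried Pinot noir markers. The next highest Cabernet Sauvignon ratio was 3.16, in 2013 on day -13. The chromosome 5 gene made up 7.65% to 20.4% of the summed NCED RPKM after day 22 in Cabernet Sauvignon, and at most 0.834% in any group before day 0.

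Among tested genes averaging at least 5 RPKM, those with the most similar course over the 73 group means were VIT_09s0054g01750 (r = 0.913) and VIT_00s0207g00200 (r = 0.910) for the chromosome 19 gene. For the chromosome 10 gene they were VIT_16s0022g00660 (r = 0.881) and the chromosome 19 gene itself (r = 0.877). For the chromosome 5 gene they were VIT_05s0062g00960 (r = 0.920) and VIT_03s0017g00870 (r = 0.909), though within Pinot noir alone these correlations were 0.666 and 0.705.

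Of 25 other IDs listed for carotenoid cleavage and for abscisic acid synthesis, breakdown and signalling, 21 were tested. At day -9 to -6 compared with day -18 to -13, 2 were called as higher, 0 as lower and 19 not at all, against 1.35% and 1.54% of all genes. The 2 were VIT_02s0087g00930, at 10.6 ± 8.95 against 0.970 ± 0.984 RPKM, and VIT_16s0050g02680, at 7.95 ± 8.60 against 0.457 ± 0.507 RPKM (SD, 18 libraries each). At day 0 compared with day -18 to -13 the counts were 3 higher, 2 lower and 16 not called, against 3.54% higher and 8.97% lower of all genes, with a median log2 difference of 0.02 over the list and -0.16 over all genes tested.

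At 5 to 10 g/100 ml compared with the green stage, 4 of the 21 were called as higher, 3 as lower and 14 not, against 3.35% and 9.74% of all genes. VIT_02s0087g00930 averaged 24.2 ± 14.9 RPKM and in the green stage 4.67 ± 8.25 RPKM, and VIT_16s0050g02680 averaged 15.6 ± 9.11 RPKM and in the green stage 2.41 ± 4.34 RPKM. VIT_08s0058g00470 fell to 0.949 ± 0.914 RPKM, against 8.77 ± 6.05 RPKM in the green stage, and VIT_18s0001g10500 fell to 0.326 ± 0.246 RPKM, against 3.14 ± 4.62 RPKM. At day 21 to 22 compared with day -18 to -13 the list gave 3 higher, 5 lower and 13 not called, against 5.62% higher and 18.9% lower of all genes, with a median of -0.60 over the list and -0.28 over all genes. VIT_02s0087g00930 was still higher at day 21 to 22, at 53.0 ± 39.0 RPKM against 0.970 ± 0.984 RPKM, when the chromosome 19 and 10 NCED genes had come down.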

How the data were processed

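RNA libraries of grape berries were non-directional, per the labels' protocols. TopHat2 2.0.6 and Cufflinks 2.0.2 are named in the submitters' processing notes, and the authors deposited RPKM values per gene and library; build, annotation and counting options are not given in the sources used here. Read depth is unknown. Values were used as log2(RPKM + 1). Genes with at least 1 RPKM in at least 3 libraries were tested (21425 of 27320 above 0). A limma 3.58.1 group-means fit over 73 groups (146 residual degrees of freedom, trend and robust eBayes, R 4.3.3) gave all contrasts, each the mean over cultivar-seasons, and was tested on simulated data. All 3 NCED genes, in all groups, and per gene the 2 most similar genes were named. Of the called genes of an abscisic acid list only some were named, as examples. Genes, lists and windows were chosen with earlier results of these data known. Cultivar and library-set markers were taken from the data (over 5 RPKM in at least 95% of one kind, under 0.5 RPKM in at least 95% of the other: the cultivars, or 2012 and 2014). Alternatives covered scaling, pseudocount, filter, replicates, seasons, library sets and the unit of replication.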

Additional observations from a re-analysis of the deposited data

Results flagged for a closer look

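The rise to veraison of VIT_19s0093g00550 and VIT_10s0003g03750 differed between 2014 and the mean of 2012 and 2013 by a test of the difference itself (limma interaction). By day the difference was -2.04 on the log2 scale for VIT_19s0093g00550 (adjusted p = 1.5e-06), -1.51 for VIT_10s0003g03750 (adjusted p = 6.0e-08) and, under the size threshold, -0.28 for VIT_05s0051g00670 (adjusted p = 0.023). By sugar it was -2.22 for VIT_19s0093g00550 (adjusted p = 5.1e-07) and -1.18 for VIT_10s0003g03750 (adjusted p = 5.2e-05). The 2014 step by sugar ended after labelled veraison, on day 7 in Pinot noir and day 8 in Cabernet Sauvignon. In Pinot noir it started on day 0. All libraries of 2014 and only 1 of the others compared belong to the second library set, so season and set cannot be told apart in these windows. Mean labelled sugar at day 0, in the unit given above, was 1.11 in Pinot noir 2014 and 2.26 in Cabernet Sauvignon 2014. It was 6.83 to 9.23 at day 0 of 2012 and 2013. The difference by day therefore does not compare berries of equal sugar between seasons.

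For VIT_05s0051g00670 the cultivar interaction (Pinot noir minus Cabernet Sauvignon) was -0.37 by day (adjusted p = 0.0028) and -0.57 by sugar (adjusted p = 1.9e-06). Neither was called, since both are under the size threshold. This gene entered the tests through Cabernet Sauvignon libraries alone, so these values, and its season value of -0.28, describe the libraries and lend no support to a difference in the rise.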

How the results depend on the processing

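Counts are of the 3 NCED genes called. With a pseudocount of 5, 0 were called for day -9 to -6 over day -18 to -13 and 1 each for day 0 over day -18 to -13, day 21 to 22 over day 0, 20 over 15 g/100 ml and the season interaction by sugar. With a pseudocount of 0.1, 1 was called for day 0 over day -9 to -6, day 21 to 22 over day -18 to -13, 15 g/100 ml over green, the cultivar comparisons at day 0, day 21 to 22, 5 to 10 and 15 g/100 ml and the cultivar interaction by sugar, and 2 for day 42 to 43 over day 21 to 22, day 21 to 22 over day -9 to -6 and 15 over 5 to 10 g/100 ml. VIT_05s0051g00670 gave these calls in the cultivar comparisons (-1.29, -1.77, -1.64 and -1.53) and in the cultivar interaction (-1.09). It entered the tests through Cabernet Sauvignon libraries alone, so these calls lend no support to a cultivar difference. Quantile and TMM scaling each left 1 for day 21 to 22 over day 0. Cultivar-season means as replicates left 0 for day -9 to -6 over day -18 to -13 and for the first sugar rise.

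Without 2012, 0 were called for day -9 to -6 over day -18 to -13, the first sugar rise and 5 to 10 g/100 ml over green, 1 for day 0 and for day 21 to 22 over day -18 to -13, day 21 to 22 over day 0, 15 g/100 ml over green and the cultivar comparisons at day -18 to -13 and 5 to 10 g/100 ml, and 2 for day 42 to 43 over day 21 to 22. Without 2013 the counts were 0 for day 21 to 22 over day -9 to -6, 1 for day 21 to 22 over day 0 and 2 for day 42 to 43 over day 21 to 22 and for 15 over 5 to 10 g/100 ml. Without 2014, and likewise in the first library set alone, they were 1 for day 7 to 11 over day 0, 2 for day 21 to 22 over day -9 to -6 and 2 for 15 over 5 to 10 g/100 ml.

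In the second library set alone (an alternative chosen after seeing the data, like the first set and the fit without the 13 second-set libraries of 2013) the counts were 0 for day -9 to -6 and day 0 over day -18 to -13, day 21 to 22 over day -9 to -6, the first sugar rise and 5 to 10 g/100 ml over green. They were 1 for day 21 to 22 over day 0, day -18 to -13 over the first sampling, 15 g/100 ml over green, the cultivar comparisons at day 0, day 21 to 22 and 15 g/100 ml and the cultivar interaction by sugar, and 2 for day 42 to 43 over day 21 to 22. There, differences of log2(RPKM + 1) changed sign for day -9 to -6 over day -18 to -13 (VIT_19s0093g00550 -0.15, VIT_10s0003g03750 -0.11), day 7 to 11 over day 0 (0.033 and 0.27) and day 21 to 22 over day -9 to -6 (VIT_10s0003g03750 0.0058). The cause was not tested.

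Leaving out each replicate number in turn gave 1 to 2 for day -9 to -6 over day -18 to -13, 0 to 1 for day 7 to 11 over day 0, 1 to 2 for day 21 to 22 over day 0, 1 to 2 for 15 over 5 to 10 g/100 ml, 0 to 1 for the cultivar comparison at day -18 to -13, 1 to 2 for the season interaction by sugar, and 20 to 26 called steps between time points, against 26 with all. Pairing by replicate number was checked on 18 same-numbered pairs of libraries, day -9 to -6 with day -18 to -13 in each of 6 cultivar-seasons. Deviations correlated over 0.1 in 7 pairs (range -0.09 to 0.29), including all 3 of Cabernet Sauvignon 2014, and 12 of the 18 libraries of day -9 to -6 matched their own number best. As not every pair passed 0.1, the numbers were not taken as pairing. With the replicate block the calls for day -9 to -6 over day -18 to -13 stayed at 2 and the called steps at 26. That block fits the replicate numbers of each cultivar across all seasons and days, so it cannot settle pairing within a cultivar-season, which was not modelled. Of the values of single genes under these alternatives, 750 kept their direction and their side of the threshold, 34 lost a call, 27 gained one, 5 changed sign and 3 step counts moved. Some alternatives gave no value: VIT_05s0051g00670 is absent at a mean of at least 5 RPKM, cultivar-season means were not run for the cultivar and interaction comparisons, and steps between time points were not recomputed within seasons or library sets.

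RPKM values carry no read depth, so the precision of the low VIT_05s0051g00670 values cannot be given. Reads were not assigned to strands, and reads shared among the NCED genes or with overlapping genes were not examined.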
